A study of Mus musculus with 8 samples.

Results

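The Hedgehog pathway genes *Shh*, *Ihh*, *Hhip*, *Ptch1*, *Smo*, *Sufu*, *Gli1*, *Gli2* and *Gli3* were examined in RNA-seq data from tumor endothelial cells (TECs) of mouse lung tumors. The 9 genes were chosen by symbol, as the core of a pathway known to act upstream of the transcription factor gene *Foxf1*, among 33641 gene symbols. All 9 were listed in every library. Only 4 of them, *Ptch1*, *Smo*, *Sufu* and *Gli3*, reached a level of 1 TPM in at least 4 of the 8 libraries and entered the comparison across 14964 genes. TPM (transcripts per 1000000) is the abundance of a gene's transcripts after division by transcript length and scaling of each library to the same total.

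Tumors were grown from Lewis lung carcinoma (LLC) cells, a mouse lung tumor line, placed in the lungs of mice on the C57Bl/6 background. In end*Foxf1*+/- mice, which carried 1 floxed *Foxf1* allele, a tamoxifen-inducible Cre driven by the *Pdgfb* promoter was activated at 6 to 8 weeks of age and removed exon 1 of that allele, so that 1 allele remained intact and the deletion was limited to cells in which this promoter is active. The labels give the other group only as control, and the study describes its controls in more than one way, as littermates that carried the floxed allele or the Cre alone, as littermates with the floxed allele, and, for the orthotopic tumors, as wild-type mice. For the LLC model it describes the inoculated mice as tamoxifen-treated, and elsewhere it names tamoxifen-treated controls. It does not state the treatment of the controls for these libraries in particular. At day 21 tumors were dissected and CD45-CD31+ cells were isolated by FACS, from which 4 control libraries (C1 to C4) and 4 end*Foxf1*+/- libraries (H1 to H4) were sequenced. The labels do not state in words that each library came from a separate mouse, so p-values measure the spread between these libraries. TPM keep no read number, and the depth of each library is unknown.

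Hedgehog signaling starts with a secreted ligand, Sonic, Indian or Desert hedgehog, which binds the receptor Patched 1. Without ligand, Patched 1 holds the membrane protein Smoothened inactive, and with ligand this block is lifted and the signal passes through the primary cilium to the GLI transcription factors. SUFU binds and restrains GLI proteins, GLI1 acts as an activator, and GLI3 is mainly known in its processed form as a repressor. In the developing lung the ligand comes from the epithelium and the receiving cells are mesenchymal, where *Foxf1* is a known target, and in blood vessels ligand is known to act largely on cells around the endothelium.

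The libraries did not all carry the same share of endothelial transcripts. The summed level of 20 endothelial markers was 12572 to 16139 TPM in controls and 14595, 15385, 760 and 7623 TPM in H1 to H4, and all 20 had a lower mean in end*Foxf1*+/- libraries. *Pecam1*, which encodes CD31, the protein used for the sort, was at 1061 to 1505 TPM in controls and at 1363, 1398, 77.5 and 914 TPM in H1 to H4. The geometric mean of the 20 markers (TPM + 1) was 5.98% of the control level in H3 and 57.2% in H4. Fibroblast markers were higher, with a summed level of the 10 genes of 68.3 to 126 TPM in controls and 207, 133, 1431 and 336 TPM in H1 to H4. Myeloid markers (10 genes) summed to 1451 to 5105 TPM in controls and 1801 to 8298 TPM in end*Foxf1*+/- libraries, with a higher mean for all 10. Epithelial markers (12 genes) ranged widely in both groups, from 7168 to 32942 TPM and from 1650 to 27101 TPM. Pericyte and smooth muscle markers (10 genes) summed to 65.7 to 95.5 TPM and 35.8 to 80.6 TPM. No marker of these lists was at 0 in all 8 libraries. *Foxf1* was at 213, 285, 296 and 331 TPM in controls and 177, 203, 14.04 and 105 TPM in end*Foxf1*+/- libraries, so that the groups did not overlap, and its lowest value was in H3. In bulk samples fewer cells of a type and less RNA per cell cannot be told apart, and results are given below with and without H3 and H4.

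In controls the 9 genes fell into a well measured group and a barely measured one. Ordered by mean TPM in controls, *Ptch1*, *Sufu* and *Smo* came first with 19.97 ± 1.44, 16.0 ± 4.53 and 11.8 ± 1.09 TPM (SD, n = 4), at percentiles 81.4, 79.0 and 75.5 of all listed symbols. Among the tested genes alone they were near the middle, at percentiles 58.2, 52.7 and 44.9. The order of these neighbours was kept in 6 of 8 libraries for *Ptch1* over *Sufu* and in 6 of 8 for *Sufu* over *Smo*. A gap followed, with *Smo* above *Gli2* in 8 of 8 libraries. *Gli3* crossed this gap in H3, where it was at 17.4 TPM, against 5.73 TPM for *Ptch1* and 9.79 TPM for *Sufu*. *Gli2* (1.36 ± 2.28 TPM) and *Gli3* (0.915 ± 0.365 TPM) were near 1 TPM in controls, and their order by mean held in only 2 of 8 libraries, the *Gli2* mean being carried by 4.76 TPM in C4. *Shh* (0.500 ± 0.367 TPM) was below *Gli3* in 8 of 8 libraries. *Shh* was above *Hhip* in 4 of 4 controls but in 5 of all 8 libraries, and *Hhip* above *Gli1* in 2 of 4 controls and 3 of 8 libraries. *Ihh* was last at 0.070 ± 0.106 TPM. Transcripts of the receptor, the transducer and the cytoplasmic inhibitor were above 10 TPM in every control, whereas the ligands *Shh* and *Ihh* and the activator *Gli1* were below 1 TPM in every control.

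**Figure D1:**
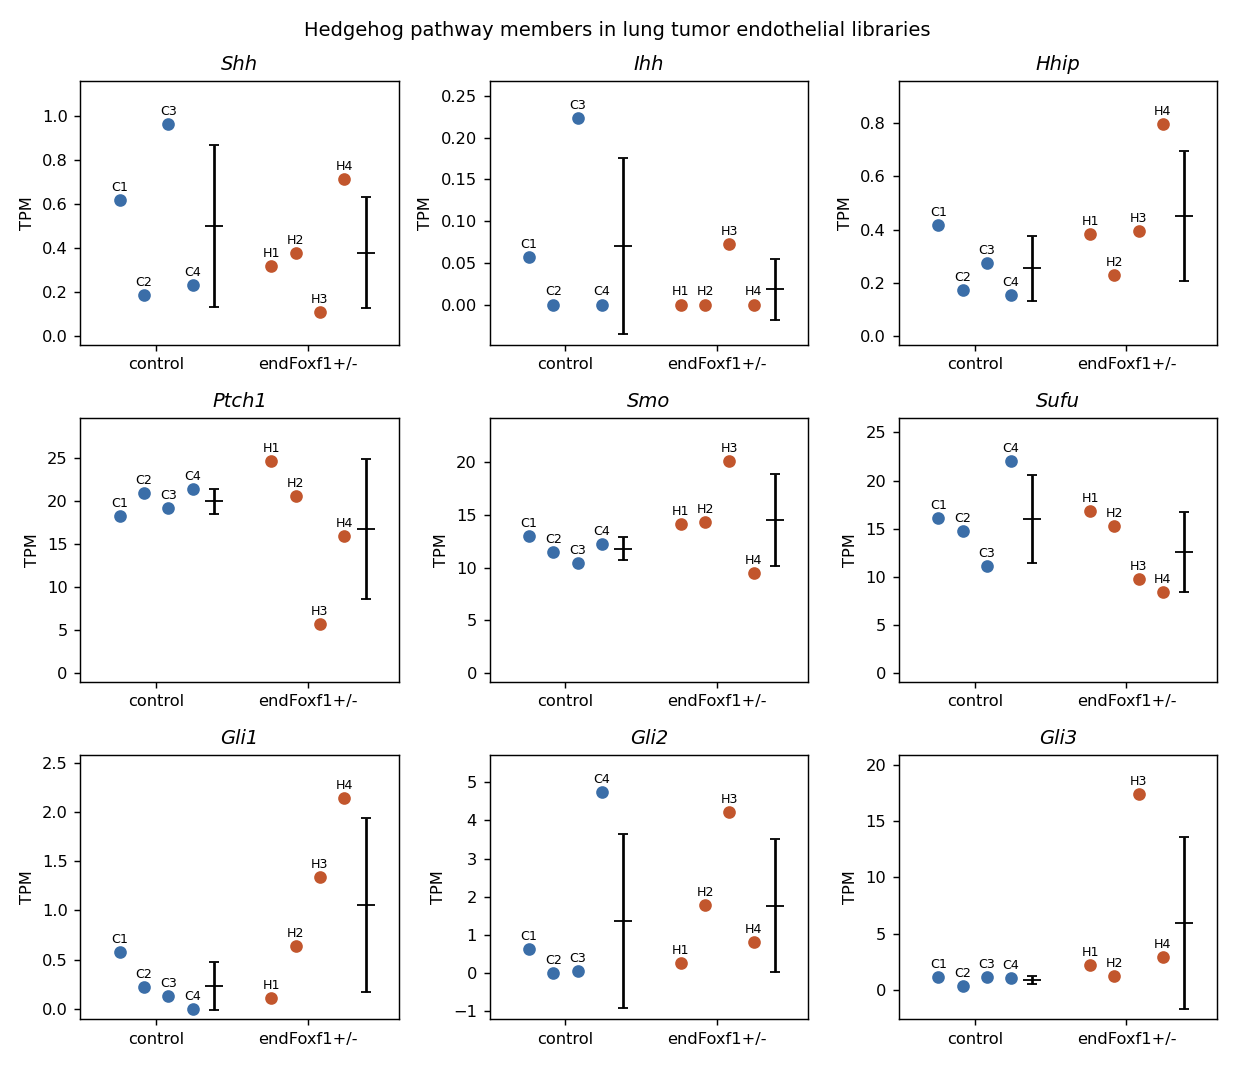
TPM of the 9 Hedgehog genes (vertical axes, linear, each with its own range) in the 4 control (C1 to C4, blue) and 4 end*Foxf1*+/- libraries (H1 to H4, orange), with the mean and standard deviation of each group beside the points. *Ptch1*, *Smo* and *Sufu* lie between 5.73 and 24.7 TPM, and *Gli3* is the gene whose end*Foxf1*+/- points all lie above its control points.

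*Shh* (GRCm38 chromosome 5, 28456815 to 28467256, minus strand), the ligand of the airway epithelium, was at 0.620, 0.185, 0.966 and 0.230 TPM in controls and 0.320, 0.377, 0.108 and 0.714 TPM in end*Foxf1*+/- libraries. The groups overlapped, and the exact two-sided permutation p over all 70 assignments of the libraries was 0.657. Of the *Shh* exons, 446 bases are shared with the opposite-strand gene *9530036O11Rik*, and reads of these genes cannot be told apart in data without strand. *Ihh* (chromosome 1, 74945315 to 74951672, minus strand), best known from cartilage and gut, was listed at 0 in 5 of 8 libraries and its highest value was 0.223 TPM in C3 (exact permutation p = 0.714). Neither ligand reached 1 TPM in any library.

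*Ptch1* (chromosome 13, 63508328 to 63573598, minus strand), the receptor and itself a textbook target of the pathway, was at 18.3, 20.9, 19.2 and 21.4 TPM in controls and 24.7, 20.6, 5.73 and 16.0 TPM in end*Foxf1*+/- libraries. The controls were tight, H1 was above all of them, and H3 and H4 were below all of them. The mean in end*Foxf1*+/- libraries was 16.8 ± 8.17 TPM (SD, n = 4). On the log2(TPM + 1) scale the fold change of end*Foxf1*+/- against control was -0.40 (SE 0.39, limma adjusted p = 0.804, exact permutation p = 0.514). The difference lay in H3, and without it the log2 difference was 0.013 (exact permutation p = 0.943). Relative to the endothelial markers of each library, which were also low in H3 and H4, the log2 difference of *Ptch1* was 0.78 (exact permutation p = 0.114). The markers themselves differed by -1.18, and on this scale the median difference of all tested genes was 1.01, with only 2.75% of genes lower. *Hhip* (chromosome 8, 79965851 to 80058006, minus strand), which encodes a membrane protein that binds and sequesters the ligands and is also a target, was at 0.419, 0.171, 0.273 and 0.155 TPM in controls and 0.383, 0.228, 0.394 and 0.798 TPM in end*Foxf1*+/- libraries. The ranges overlapped (exact permutation p = 0.2), and no library reached 1 TPM.

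*Smo* (chromosome 6, 29735503 to 29761365, plus strand), the transducer, was at 12.995, 11.4, 10.4 and 12.2 TPM in controls and 14.1, 14.3, 20.1 and 9.47 TPM in end*Foxf1*+/- libraries. H1, H2 and H3 were above every control and H4 was below every control. The log2 fold change was 0.24 (SE 0.26, limma adjusted p = 0.818, exact permutation p = 0.371), and 0.075 without H3. Unlike *Ptch1*, *Smo* was at its highest in H3, the library with the lowest endothelial marker level. Its log2 difference was 1.42 relative to the endothelial markers, with no overlap (exact permutation p = 0.0286), where the median of all genes was 1.01 and 1628 of them lay wholly above the controls, and -0.97 relative to the fibroblast markers, where that median was -1.38. The 8 proliferation markers, all with a higher mean in end*Foxf1*+/- libraries, summed to 199 to 226 TPM in controls and to 308, 279, 501.8 and 202 TPM in H1 to H4, with H1, H2 and H3 above every control as for *Smo*. Their part in the *Smo* values was not tested. *Sufu* (chromosome 19, 46396896 to 46488804, plus strand), the inhibitor of GLI proteins, was at 16.1, 14.8, 11.2 and 22.1 TPM in controls and 16.9, 15.3, 9.79 and 8.42 TPM in end*Foxf1*+/- libraries. H1 and H2 lay within the control range and H3 and H4 below it. Its log2 fold change was -0.34 (SE 0.31, limma adjusted p = 0.797, exact permutation p = 0.314), and 0.04 without H3 and H4.

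The 3 GLI genes had low control levels. *Gli1* (chromosome 10, 127329882 to 127341974, minus strand), the activator whose own transcript is commonly used as a readout of the pathway, was at 0.574, 0.223, 0.132 and 0 TPM in controls and 0.109, 0.635, 1.34 and 2.15 TPM in end*Foxf1*+/- libraries. H2, H3 and H4 were above every control, but H1 was below 3 of the 4, and the exact permutation p was 0.143. *Gli1* exons share 62 bases with *Arhgap9* on the opposite strand, a gene at 24.3 TPM in H3 and 1.46 to 3.91 TPM in the other libraries. *Gli2* (chromosome 1, 118834132 to 119053619, minus strand), the main activator upstream of *Gli1*, was at 0.614, 0, 0.0588 and 4.76 TPM in controls and 0.261, 1.78, 4.22 and 0.809 TPM in end*Foxf1*+/- libraries. The highest value of *Gli2* was in a control, and the groups overlapped throughout (exact permutation p = 0.514).

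*Gli3* (chromosome 13, 15463235 to 15730026, plus strand) was the member whose groups did not overlap. It was at 1.16, 0.373, 1.11 and 1.02 TPM in controls and 2.18, 1.28, 17.4 and 2.93 TPM in end*Foxf1*+/- libraries. Every end*Foxf1*+/- library was above every control, H2 lay only just above C1, and H3 stood far above the rest. The group means were 0.915 ± 0.365 and 5.94 ± 7.66 TPM (SD, n = 4 each), and 2.13 TPM for end*Foxf1*+/- without H3. The log2 fold change was 1.34 (SE 0.59), with an unadjusted p of 0.047, an adjusted p of 0.790 by limma with Benjamini-Hochberg adjustment, and an exact permutation p of 0.0286. Without H3 the log2 difference was 0.70, again with no overlap, as for 9.10% of all tested genes at that setting, and an exact permutation p of 0.0286. Without H3 and H4 it was 0.51 (exact permutation p = 0.133, where 0.0667 is the smallest possible). Under quantile normalization and under median ratio scaling the log2 fold change was 1.56 and 1.51, and the groups overlapped.

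Over all genes, limma called 0 of 14964 at an adjusted p under 0.05 (0%), and none of the 4 tested Hedgehog members. At an unadjusted p under 0.05 it called 836 genes, 5.59% of those tested, and 1 of the 4 members, *Gli3*. *Gli3* reached 1 TPM in 3 of the 4 controls and in all 4 end*Foxf1*+/- libraries. It met the filter of 4 libraries only with the group in which it was higher, so its call is no support for the members as a list. In 2.73% of all tested genes every end*Foxf1*+/- library was above every control, in 2.31% every one was below, and together 5.04% did not overlap. Of the 4 tested members 1 did not overlap, and of all 9 members also 1. Among the 4 members 2 had a higher and 2 a lower mean in end*Foxf1*+/- libraries. The median log2 fold change of all tested genes was -0.17, with 68.0% of them lower, and the 2 other scalings moved this median to -0.01 and -0.02. The directions of the 4 members were the same under both scalings, at -0.27 and -0.23 for *Ptch1*, 0.38 and 0.42 for *Smo*, and -0.19 and -0.16 for *Sufu* (quantile normalization and median ratio scaling).

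**Figure D2:**
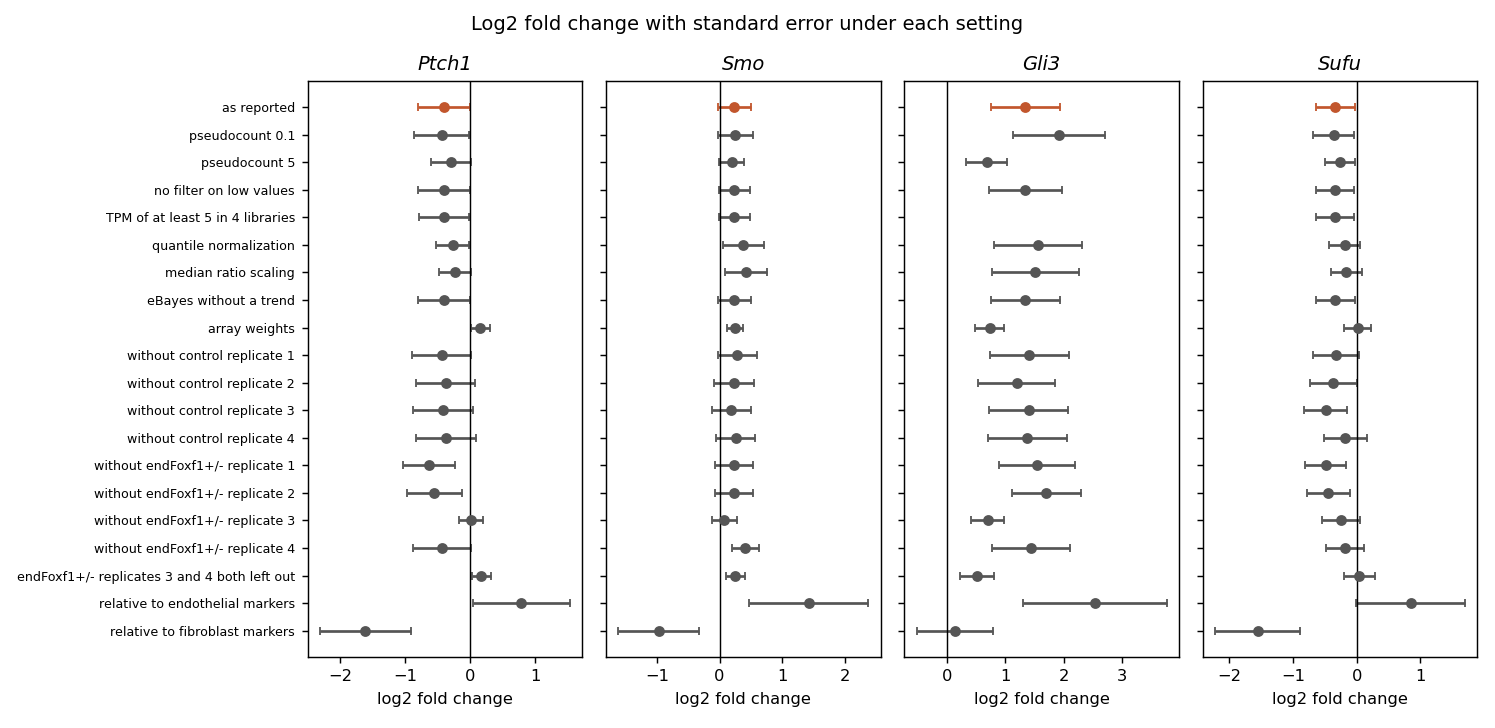
Log2 fold change of the 4 tested members (horizontal axes, end*Foxf1*+/- against control, points with standard errors) as reported (orange) and under each other setting (grey rows). *Gli3* stays above 0 in every row, from 0.13 to 2.53, and has no value at a minimum of 5 TPM. As its groups did not overlap, only the scaling and marker rows could have placed *Gli3* below 0. *Ptch1* and *Sufu* lie on both sides of 0, and *Smo* is below 0 only relative to the fibroblast markers.

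*Gli3* was highest in the libraries with the most transcripts of fibroblast markers. All 4 end*Foxf1*+/- libraries had a higher summed fibroblast marker level than every control, and the mean log2 level of the 10 markers differed by 1.21 (exact permutation p = 0.0571). Of the 10 markers 8 had a higher mean in end*Foxf1*+/- libraries, and in 4 of the 10 every end*Foxf1*+/- library was above every control, in 1 below. *Pdgfra*, the receptor gene that marks lung fibroblasts, was at 0.828 to 3.46 TPM in controls and 5.12, 2.68, 23.9 and 10.2 TPM in H1 to H4, a ranking of the end*Foxf1*+/- libraries that *Gli3* shares. Relative to the fibroblast markers of each library, a comparison added after the data were seen, the log2 difference of *Gli3* was 0.13 (exact permutation p = 0.914), against 2.53 relative to the endothelial markers (exact permutation p = 0.0571). The medians of all tested genes on these scales were -1.38 and 1.01. Myeloid markers were also higher, with a mean log2 level of 3.04 to 4.30 in controls and 4.38, 4.67, 7.35 and 4.51 in H1 to H4, a difference of 1.35 with no overlap (exact permutation p = 0.0286, the smallest that 4 against 4 libraries allow). The part of fibroblast and myeloid transcripts in the *Gli3* and *Gli1* values was not tested.

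**Figure D3:**
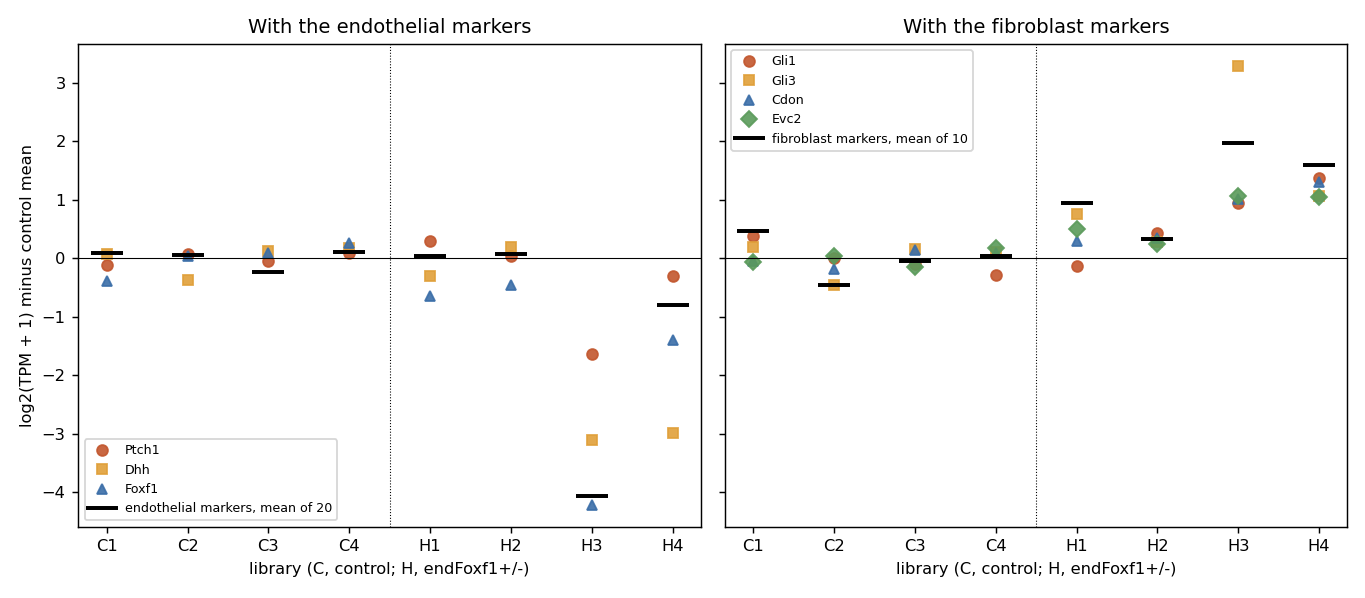
Deviation of log2(TPM + 1) from the control mean (vertical axis, log2) in each library (horizontal axis). The left panel sets *Ptch1*, *Dhh* and *Foxf1* beside the mean of 20 endothelial markers (black bars), which is lowest in H3 and next lowest in H4, and the right panel sets *Gli1*, *Gli3*, *Cdon* and *Evc2* beside the mean of 10 fibroblast markers, which is highest in H3 and next in H4.

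The rest of the pathway was described from a list of 45 further genes, of which 42 were tested. Of these, 18 had a higher and 24 a lower mean in end*Foxf1*+/- libraries with a median log2 fold change of -0.10, but 16 and 13 were lower under quantile normalization and median ratio scaling, and 14 without H3. None passed the adjusted threshold in limma, and 2 had an unadjusted p under 0.05 (4.76%, against 5.59% of all genes), namely *Cdon* and *Evc2*. These 2 did not overlap between the groups, against 5.04% of all genes, but *Cdon* overlapped under quantile normalization and *Evc2* under median ratio scaling. *Cdon* entered the test only through the end*Foxf1*+/- libraries, in which it was higher, so its call is no support for the list. Without C1, C2 or C3, 0 of the 42 genes had an unadjusted p under 0.05 in limma, without C4 or H4 1 did, without H1 4 did, without H2 5 did, and with array weights 6 did.

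**Figure D4:**
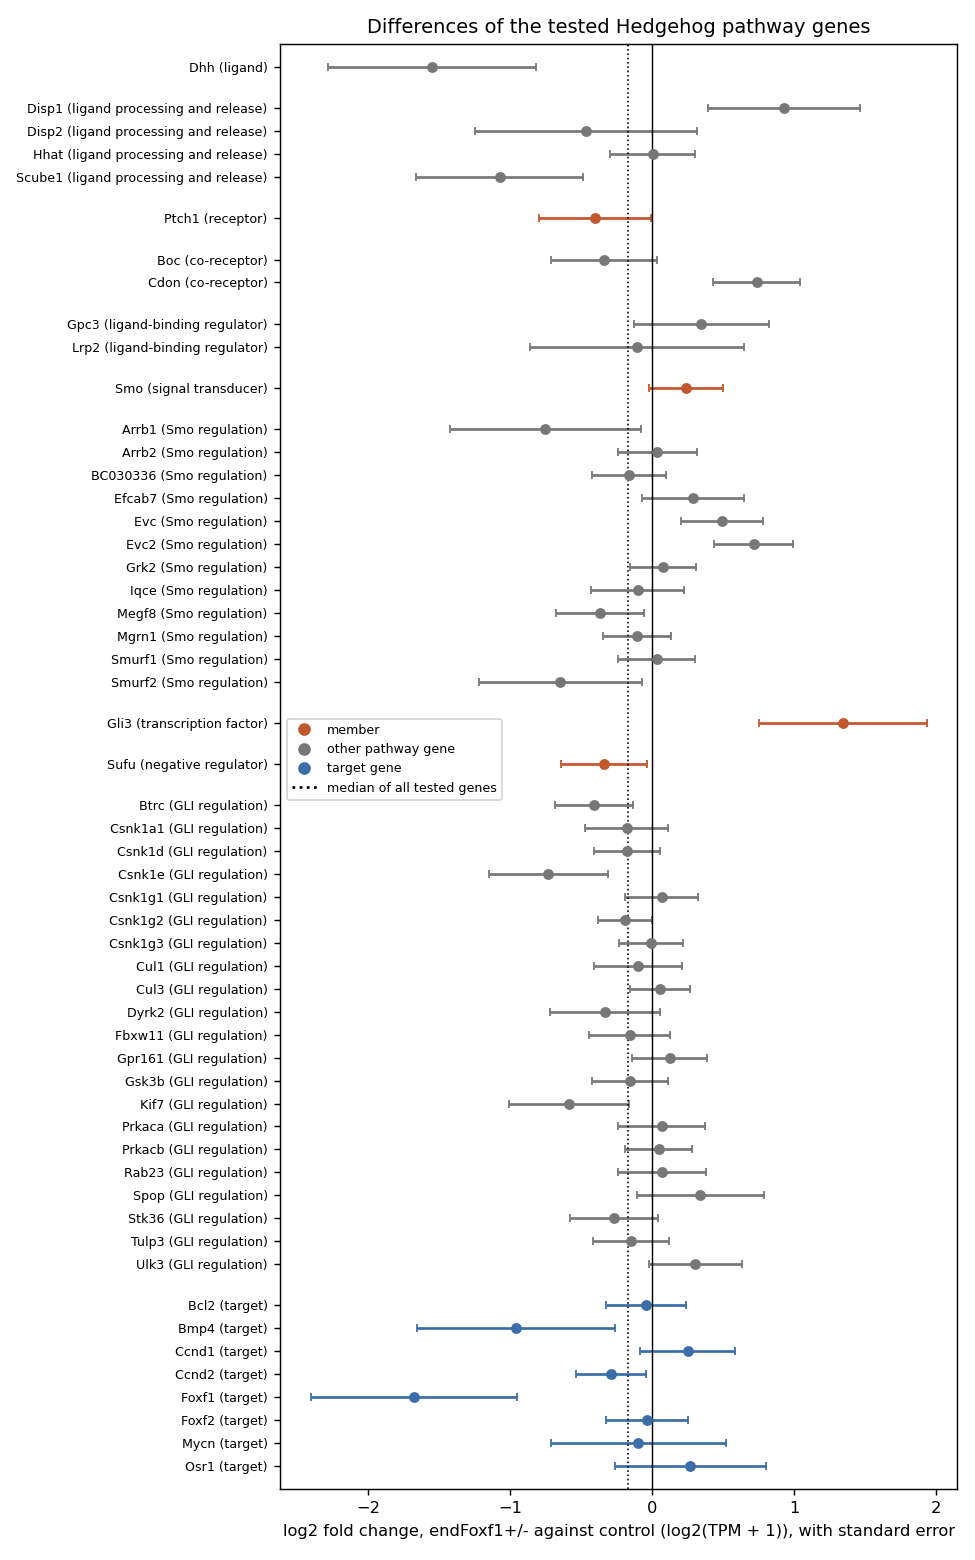
Log2 fold change with standard error (horizontal axis, end*Foxf1*+/- against control on the log2(TPM + 1) scale) of the tested Hedgehog genes, grouped by role, with members in orange, other pathway genes in grey and target genes in blue. The dotted line is the median of all tested genes at -0.17, *Gli3* at 1.34 lies furthest to the right, and *Foxf1* at -1.68 and *Dhh* at -1.55 lie furthest to the left.

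Among the ligand genes, Desert hedgehog (*Dhh*) is known from Schwann cells, testis and endothelium. It was far above *Shh* and *Ihh* in the controls, H1 and H2, but in H4 it was at 0.977 TPM, against 0.714 TPM for *Shh*. *Dhh* was at 15.5, 11.2, 16.2 and 16.8 TPM in controls, a mean of 14.9 ± 2.51 TPM (SD, n = 4), and at 11.8, 17.0, 0.834 and 0.977 TPM in end*Foxf1*+/- libraries. H1 and H2 were at the level of the controls, and H3 and H4 were far below the lowest of them. The log2 fold change was -1.55 (SE 0.73, limma adjusted p = 0.790, exact permutation p = 0.257), and -0.05 without H3 and H4. Relative to the endothelial markers on the log2 scale *Dhh* was at -5.23 to -4.45 in controls, at -7.01 in H4, below every control, and at -3.86 in H3, above every control, and the group difference was -0.37 (exact permutation p = 0.771). The marker mean was only 4.74 in H3, against 8.55 to 8.90 in controls, so a gene near 0 TPM cannot fall far below the markers there. The place of H3 and the group difference on this scale therefore say little about *Dhh*. *Dhh* exons share 546 bases with *Rhebl1* on the same strand, which was at 3.28 to 8.57 TPM in controls and 6.90 to 10.1 TPM in end*Foxf1*+/- libraries. Of the 6 genes for ligand processing and release 4 were tested and none had an unadjusted p under 0.05. The most abundant were *Disp2*, a relative of the ligand exporter gene *Disp1* (30.0 ± 12.1 TPM in controls and 31.0 ± 25.6 TPM in end*Foxf1*+/- libraries), *Scube1*, of a family of secreted ligand carriers (14.1 ± 1.62 and 8.68 ± 7.63 TPM), and *Hhat*, the ligand palmitoyltransferase gene (10.7 ± 2.09 and 11.1 ± 3.65 TPM).

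Co-receptors help to present the ligand to Patched. Of their 3 genes, *Cdon* (chromosome 9, 35421128 to 35507652, plus strand) was at 0.656, 0.510, 0.891 and 0.815 TPM in controls and 1.09, 1.17, 2.43 and 3.25 TPM in end*Foxf1*+/- libraries. The groups did not overlap, with a log2 fold change of 0.74 (SE 0.30, unadjusted p = 0.038, limma adjusted p = 0.790). Without H3 and H4 it was 0.31 (exact permutation p = 0.133), and relative to the fibroblast markers it was -0.47, where the median of all tested genes was -1.38. *Cdon* reached 1 TPM in 0 controls. *Gas1* was not tested and was at 0.446 ± 0.177 TPM in controls and 2.66 ± 2.44 TPM in end*Foxf1*+/- libraries, with 5.12 and 4.40 TPM in H3 and H4. *Boc* was at 4.73 ± 1.26 and 3.80 ± 2.25 TPM (exact permutation p = 0.4). The ligand-binding regulators *Lrp2* and *Gpc3* were at 6.81 ± 2.77 and 1.42 ± 0.220 TPM in controls, and each ranged widely in end*Foxf1*+/- libraries, up to 33.7 and 7.22 TPM in H4.

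Among 12 genes that act on Smoothened, *Evc2* (chromosome 5, 37338499 to 37425055, plus strand), which with *Evc* forms a complex at the base of the cilium, was at 2.72, 2.99, 2.51 and 3.36 TPM in controls and 4.52, 3.61, 7.11 and 6.98 TPM in end*Foxf1*+/- libraries. Every end*Foxf1*+/- library was above every control, and the values were highest in H3 and H4. Its log2 fold change was 0.71 (SE 0.28, unadjusted p = 0.029, limma adjusted p = 0.790), 0.60 without H3, 0.38 without H3 and H4, and -0.50 relative to the fibroblast markers, where the median of all tested genes was -1.38. Its partner *Evc*, named after its values were seen, was at 2.76 ± 0.454 and 4.45 ± 1.69 TPM, and the difference of 0.49 on the log2 scale had an exact permutation p of 0.0571. No other gene of this group had an unadjusted p under 0.05. The most abundant were *Smurf2*, a ubiquitin ligase gene (155 ± 17.5 and 126 ± 74.5 TPM), *Arrb1*, a beta-arrestin gene (120 ± 30.3 and 96.2 ± 65.2 TPM), and *BC030336*, the older symbol of *Mosmo* (37.0 ± 4.93 and 33.8 ± 8.995 TPM).

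All 21 genes that regulate GLI proteins were tested, 8 were higher and 13 lower in end*Foxf1*+/- libraries, a split that became 13 and 8 under quantile normalization, 15 and 6 under median ratio scaling and 14 and 7 without H3. None had an unadjusted p under 0.05 in limma under any of the 3 scalings, and 1 did without H3. The most abundant were *Spop*, an adaptor of the ubiquitin ligase that degrades GLI proteins (564 ± 103 and 831 ± 580 TPM), *Csnk1a1*, a casein kinase gene (184 ± 15.3 and 171 ± 54.4 TPM), and *Cul1*, a ubiquitin ligase scaffold gene (105 ± 16.2 and 104 ± 41.8 TPM). *Spop* and *Csnk1a1* lay well above every member in level, on the same TPM scale.

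Of 9 genes known as Hedgehog targets in lung and other tissues 8 were tested, 2 higher and 6 lower in end*Foxf1*+/- libraries, a split that became 5 and 3 under quantile normalization and 4 and 4 under median ratio scaling. *Foxf1*, the gene deleted in these mice, was the 1 target with an unadjusted p under 0.05 and with no overlap between the groups, against 5.59% and 5.04% of all genes. The deletion was made to lower *Foxf1*, so its call and its place among the 6 lower genes say nothing about Hedgehog targets. No other target was called or did not overlap. The groups overlapped for all targets under quantile normalization, and with any 1 control or H4 left out no target had an unadjusted p under 0.05 in limma. The log2 fold change of *Foxf1* was -1.68 (SE 0.72, limma adjusted p = 0.790, exact permutation p = 0.0286), -0.55 without H3 and H4, and -0.49 relative to the endothelial markers (exact permutation p = 0.0571). Relative to these markers the median of all tested genes was 1.01, with only 2.75% of genes lower. *Ccnd1*, the cyclin D1 gene, was at 161 ± 16.6 TPM in controls and at 299, 208, 96.7 and 219 TPM in H1 to H4, a log2 difference of 0.25 with an exact permutation p of 0.543. Without H3, when 9.10% of all genes did not overlap, it was 0.58 with no overlap between the groups (exact permutation p = 0.0286), and without H3 and H4 it was 0.64. *Bmp4*, a growth factor gene of the lung mesenchyme, was within 54.7 to 58.1 TPM in all controls and at 59.9, 50.8, 4.15 and 46.4 TPM in H1 to H4, so that only H3 was far from the controls.

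The 12 genes of the primary cilium, the organelle through which Smoothened signals, were all tested, 6 higher and 6 lower, with 8 higher under both other scalings, and 0 had an unadjusted p under 0.05 in limma, where 5.59% of all genes did. Under quantile normalization and median ratio scaling 1 did, where 7.02% and 6.70% of all genes did. *Dync2h1*, the motor of retrograde transport in the cilium, was the 1 of the 12 (8.33%, against 5.04% of all genes) that did not overlap, at 3.18, 3.44, 3.59 and 2.89 TPM in controls and 2.68, 2.87, 1.65 and 2.11 TPM in end*Foxf1*+/- libraries. Its log2 fold change was -0.38 (SE 0.25, unadjusted p = 0.158, limma adjusted p = 0.790), and H2 lay only just below C4. The most abundant transport genes, *Ift20* (88.0 ± 7.97 and 79.2 ± 22.8 TPM), *Ift172* (71.5 ± 9.36 and 44.8 ± 24.3 TPM) and *Ift57* (42.7 ± 2.51 and 42.2 ± 4.10 TPM), overlapped between the groups.

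The genes whose levels followed each tested member were taken from 10982 genes with a mean of at least 5 TPM, by Pearson's r of log2(TPM + 1) over the 8 libraries, which share the low endothelial marker level of H3 and H4. *Ptch1* was followed by *Apmap* (r = 0.997, and 0.976 without H3), *Zdhhc1* (0.997 and 0.988) and *Ubr3* (0.996 and 0.957). *Apmap* was at 35.4 to 38.2 TPM in controls and at 13.9 TPM in H3, where *Ptch1* was also lowest. *Gli3* was followed by *Prkg2* (0.996 and 0.974), *Prrx1* (0.993 and 0.988) and *Anxa1* (0.989 and 0.945), of which *Prkg2* and *Prrx1* reached the mean of 5 TPM only through H3, where *Gli3* was also highest. *Prrx1*, a homeobox gene known from mesenchymal cells, was at 1.13 to 2.89 TPM in controls and 6.21, 3.40, 49.5 and 8.82 TPM in H1 to H4. *Smo* was followed by the ribosomal protein gene *Rps6* (0.980 and 0.945), the mitochondrial ribosomal protein gene *Mrpl52* (0.980 and 0.950) and *Gmnn*, which encodes the replication inhibitor geminin (0.975 and 0.963). *Sufu* was followed by *P3h4* (0.972 and 0.967), *Katnbl1* (0.967 and 0.963) and *Gnpnat1* (0.964 and 0.955), and all 3 were lowest in H4.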

How the data were processed

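RNA-seq of CD45-CD31+ cells from LLC lung tumors was analysed in 4 control and 4 end*Foxf1*+/- libraries, grouped by the genotype in their labels and numbered in accession order. For each library the authors deposited TPM per gene symbol, normalized for transcript length and summing to 1000000. The submitters' processing notes name TopHat, Cufflinks, Subread, DESeq2 and the build GRCm38/mm10 without their roles, and which of these tools made the TPM, and the annotation used, are not given in the sources used here. Libraries were made with a kit that does not mark strand. TPM keep no read numbers, so no counting error, interval or floor was computed, and depth is unknown. No 2 of the 8 libraries (28 pairs) held identical values.

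TPM were analysed as log2(TPM + 1) in R 4.3.3 with limma 3.58.1 (lmFit, eBayes with trend). The 14964 genes with at least 1 TPM in at least 4 of 8 libraries were tested, with Benjamini-Hochberg adjustment over all of them and a threshold of 0.05. For single genes, the gap between the group means of log2(TPM + 1) was set against all 70 ways of assigning the libraries, as an exact permutation test (two-sided), whose smallest p is 0.0286. Fold changes on this scale understate the change of genes near 1 TPM. Levels relative to markers are differences from a list's mean log2(TPM + 1). Coordinates are those of GENCODE vM21 on GRCm38, which holds 32159 (95.6%) of the 33641 symbols.

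The members, gene lists and tests were chosen with earlier results of these data known, and the lists were written from textbook knowledge, of which 1 gene is not reported here. The genes named are the 9 members, *Foxf1*, *Pecam1*, each gene of the other lists whose groups did not overlap, otherwise the 3 most abundant genes of each role, and the 3 genes most correlated with each tested member. Genes that share exons with a named gene, *Pdgfra* and *Evc* were added after values were seen. Alternatives were other pseudocounts (0.1 and 5), filters (none, or at least 5 TPM), quantile normalization, median ratio scaling, eBayes without trend, array weights, each library left out, H3 and H4 left out, and marker references.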

Additional observations from a re-analysis of the deposited data

Results flagged for a closer look

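Within each group of 4 libraries, the highest or lowest value was compared with its nearest neighbour by Dixon's ratio, for the 9 members and *Foxf1* and for the endothelial and fibroblast marker levels. Of 24 such groups 4 held a library that stood apart at the 95% level of 0.829, where chance flags about 1 in 20 groups of normally distributed values, or 1.2 here. TPM near 0 do not follow that distribution, so 4 and 1.2 are not strictly comparable. *Gli3* in H3 was at 17.4 TPM, against 2.93 TPM in the nearest end*Foxf1*+/- library, and H3 was also the library with the lowest endothelial and the highest fibroblast marker level. *Gli2* in C4 was at 4.76 TPM, against 0.614 TPM in the nearest control, and the summed fibroblast markers of C4, at 108 TPM, lay within the control range of 68.3 to 126 TPM. *Ihh* in H3 was at 0.0730 TPM, with the other end*Foxf1*+/- libraries at 0, so that any value above 0 would have been flagged. The endothelial marker level of C3 was 8.55, the mean log2(TPM + 1) of the 20 markers, against 8.85 in the nearest control.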

How the results depend on the processing

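The adjusted threshold was passed by 0 genes as reported, by 148 with array weights, by 3 without H3 and H4 and by 0 to 1 with single libraries left out (1 without C1 or without H3). It was passed by 9 genes relative to fibroblast markers and by 1 relative to endothelial markers. The array weights of H3 and H4 were 0.0643 and 0.178, where equal libraries would have a weight of 1. At an unadjusted p under 0.05 the count of 836 became 519 at a minimum of 5 TPM, 2866 with array weights, 1813 without H3 and H4, and 426 to 1616 with single libraries left out, lowest without C2 and highest without H2. The member with an unadjusted p under 0.05, *Gli3*, was lost (0 members) with a pseudocount of 5, without a filter, at a minimum of 5 TPM (where it was not tested), under quantile normalization and median ratio scaling, without H3 and H4, and relative to endothelial markers. Relative to fibroblast markers 2 of the 4 members passed, where 7761 of the 14964 genes did, and with single libraries left out 0 to 1 did (0 without any 1 of the controls or without H4). Members whose groups did not overlap numbered 0 at a minimum of 5 TPM, under both scalings and relative to fibroblast markers, 2 without H3 and H4 (where 24.4% of all tested genes did not overlap), and 1 to 2 with single libraries left out (2 without H4, where 854 of the 14964 genes lay wholly above and 546 wholly below the controls).

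The direction of *Ptch1* turned with array weights (0.16), without H3 and H4 (0.17) and relative to endothelial markers (0.78), and with single libraries left out its log2 fold change ran from -0.63 to 0.013, turning without H3. *Sufu* turned with array weights (0.014), without H3 and H4 (0.043) and relative to endothelial markers (0.85). *Smo*, *Cdon* and *Evc2* turned relative to fibroblast markers (-0.97, -0.47 and -0.50), and *Dync2h1* relative to endothelial markers (0.81). These settings also moved the median of all tested genes, from -0.17 as reported to 0.13 with array weights, 0.14 without H3 and H4, 1.01 relative to endothelial and -1.38 relative to fibroblast markers. *Gli3* kept its direction under all 18 alternatives that gave it a value, from 0.13 to 2.53, with adjusted p from 0.166 to 0.975. Every end*Foxf1*+/- value of *Gli3* lay above every control, so only the scalings and the marker references could have turned it. Under the other alternatives its direction was fixed in advance. No member passed the adjusted threshold under any alternative, and adjusted p ran from 0.0900 to 0.990 for *Ptch1*, 0.167 to 0.975 for *Smo* and 0.0900 to 0.978 for *Sufu*. No paired analysis was possible because the labels give no replicate numbers that the groups share. Without read numbers, genes near or below 1 TPM, including *Gli3* and the 5 members that were not tested, carry an unknown counting error.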
